A study of Mus musculus with 16 samples.

Results

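The genes described here take up, bind, make and break down retinoic acid, or respond to it, and were followed in RNA-seq libraries of mouse granulosa cells (mGCs), the cells that surround and nourish the oocyte in the ovarian follicle. They are 9 of the 57010 genes counted, namely Stra6, Crabp2, Rdh10, Aldh1a1, Aldh1a2, Dhrs3, Cyp26b1, Rara and Tgm2, and each had exactly 1 entry in both count tables. The set was chosen by measured values, since Stra6 and Cyp26b1 changed in the comparison of 14,15-EET with PBS, so that comparison is given for the 9 genes as a description without a test. The comparison of EM-mGC with Con-mGC holds none of these libraries, while that of cultured with freshly isolated cells uses the same 3 PBS libraries.

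The study asked how endometriosis and a lipid mediator, 14,15-epoxyeicosatrienoic acid (14,15-EET), act on granulosa cells, with 16 libraries in 4 groups from ICR female mice. Con-mGC (5 libraries) came fresh from mice after sham surgery, and EM-mGC (5 libraries) came fresh from mice of an endometriosis (EM) model in which endometrium of a donor mouse was sutured inside the abdomen of a recipient. PBS (3 libraries) and EET (3 libraries) were mGCs of EM mice cultured in DMEM/F12 with 5% FBS and exposed for 24 h to PBS or to 100 nM 14,15-EET. By the paper's figure legend this exposure followed a first 24 h of culture. Recipients kept their ovaries and were given 17β-estradiol before the cells were taken after ovulation induction, and whether the sham mice also received estradiol is not given in the sources used here. The cultured cells all came from EM mice, so the cultured groups hold no sham counterpart. By the paper's methods, cells of EM mice were split at random into an untreated and a treated part, as paired replicates. Which mice went into which cultured library is not given in the sources used here.

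Retinol travels in blood on a binding protein and enters cells through the receptor STRA6. RDH10 oxidises it to retinal, DHRS3 turns retinal back into retinol, and enzymes of the ALDH1A family oxidise retinal to retinoic acid, which CRABP2 carries to nuclear receptors such as RARA and which CYP26 enzymes destroy. In the ovary retinoic acid is best known for its part in the meiotic entry of germ cells.

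Retinoic acid receptors classically bind direct repeats of a hexamer, and the promoters of Rarb and Cyp26a1 are the textbook cases. The repeats found in the start-site windows of these 2 genes are shown first as a yardstick, with the hexamers in capitals and the spacer in lower case. They come from RefSeq windows on GRCm38.p6 that reach from 250 bases before to 50 bases after a gene start, and lie at chr14:16575513-16575529 on the minus strand and at chr19:37697776-37697792 on the minus strand.
Rarb: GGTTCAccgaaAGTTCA
Cyp26a1: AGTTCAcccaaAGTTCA

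Windows were held for 6 of the 9 genes (15 windows, since some genes have several starts), and Crabp2, Rdh10 and Tgm2 had none. Each was searched on both strands for AGGTCA or AGTTCA or GGGTCA or GGTTCA, alone and as a direct repeat with a spacer of 1, 2 or 5 bases, and a hexamer inside a repeat was counted in both searches. None of the 15 windows held a repeat of any of the 3 kinds, which were also rare in general, with the 5-base spacer in 0.0974%, the 2-base spacer in 0.268% and the 1-base spacer in 0.222% of 32851 windows of the same length. A single hexamer was common (43.7% of windows) and occurred in 1 of the 4 Stra6 windows, 1 of the 2 Aldh1a1 windows and 2 of the 4 Rara windows. Such a match describes these letters in these windows only.

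The windows of the 3 genes with the largest differences after 14,15-EET are shown here, 5′ to 3′ on the strand of the gene, with hexamers in capitals. They lie at chr9:58133825-58134124 (plus strand, Stra6, the start whose window holds a hexamer, from base 16 after the start), chr6:84593761-84594060 (minus strand, Cyp26b1) and chr9:71215539-71215838 (plus strand, Aldh1a2). The Aldh1a2 window was rich in G and C (78%), and those of Cyp26b1 (62.3%) and Stra6 (53%) less so.
Stra6: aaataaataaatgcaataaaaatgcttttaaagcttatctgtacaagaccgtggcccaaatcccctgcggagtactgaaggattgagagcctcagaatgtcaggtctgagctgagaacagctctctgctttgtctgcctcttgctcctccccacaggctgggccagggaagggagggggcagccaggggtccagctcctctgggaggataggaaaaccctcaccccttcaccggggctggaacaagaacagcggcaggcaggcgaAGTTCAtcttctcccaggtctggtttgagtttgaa
Cyp26b1: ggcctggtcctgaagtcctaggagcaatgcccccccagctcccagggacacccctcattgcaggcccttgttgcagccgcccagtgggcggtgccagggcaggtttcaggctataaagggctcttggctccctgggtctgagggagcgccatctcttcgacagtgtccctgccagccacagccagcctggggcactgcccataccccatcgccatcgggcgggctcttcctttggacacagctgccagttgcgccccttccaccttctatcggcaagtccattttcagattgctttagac
Aldh1a2: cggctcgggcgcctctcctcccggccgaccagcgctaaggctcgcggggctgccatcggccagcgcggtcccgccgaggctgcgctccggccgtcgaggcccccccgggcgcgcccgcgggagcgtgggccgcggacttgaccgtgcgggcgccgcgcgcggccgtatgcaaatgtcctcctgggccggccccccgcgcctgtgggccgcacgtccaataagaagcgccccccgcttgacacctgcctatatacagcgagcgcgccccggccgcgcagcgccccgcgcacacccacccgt

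Total counts were 14229123 to 15999234 per freshly isolated library and 21384686 to 29482826 per cultured library. Mitochondrial genes took 21.8% of the counts in EM-mGC-3, 6.76% to 11.1% in the other fresh libraries and 1.18% to 1.64% in cultured ones. All 10 granulosa markers were detected in every group, with summed levels of 9864 to 12862 CPM (reads scaled to a common library size by TMM, here over all 16 libraries) in Con-mGC, 5380.3 to 17334 in EM-mGC, 5364 to 5964 in PBS and 4864 to 5336 in EET. In cultured libraries Cyp19a1 had only 0 to 9 reads, Lhcgr 1 to 11 and Amh 4 to 10. Fresh libraries held at least 2229, 9314 and 512 reads of these 3. Inha and Inhba made up most of the cultured sum, with means of 2469 and 1933 CPM in PBS (scaled within the cultured libraries). Fresh libraries also held reads of markers of other cell types, with summed red blood cell markers at 2227 to 14534 CPM, stroma at 591 to 1612, theca at 343 to 517, leukocyte at 169 to 625, oocyte at 87 to 690.1, surface epithelium at 96.1 to 258 and endothelium at 84.6 to 178. In cultured libraries the endothelial (2.91 to 3.9), oocyte (0.623 to 1.36), and red blood cell (0.0866 to 0.219) sums were near 0 and the leukocyte sum was 15.1 to 27.5, with Cldn5, Oosp1, Hbb-bs and the leukocyte marker S100a8 at 0 reads in all 6. Theca markers stood at 542 to 802 CPM there, but most of this was Acta2, with means of 543 CPM in PBS and 453 in EET (scaled within the cultured libraries). The theca markers Cyp17a1 and Insl3 had 0 to 2 and 0 to 6 reads in cultured libraries. Fewer cells of a type and less RNA per cell cannot be told apart in such bulk samples.

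The level of each gene across the 4 groups is shown first, as CPM scaled jointly over the 16 libraries, and per kilobase of exon where different genes are compared. Per kilobase, Aldh1a1 was the highest of the 9 in every group, with means of 128 in Con-mGC, 87.4 in EM-mGC, 788 in PBS and 727 in EET. In Con-mGC Aldh1a2 (28.5) and Crabp2 (25.8) came next, in EM-mGC Crabp2 (33.9) and Aldh1a2 (19.6), and Cyp26b1 was last in both (0.478 and 0.541). In PBS Crabp2 (167) and Cyp26b1 (30.6) came next and Tgm2 last (1.65).

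**Figure D1:**
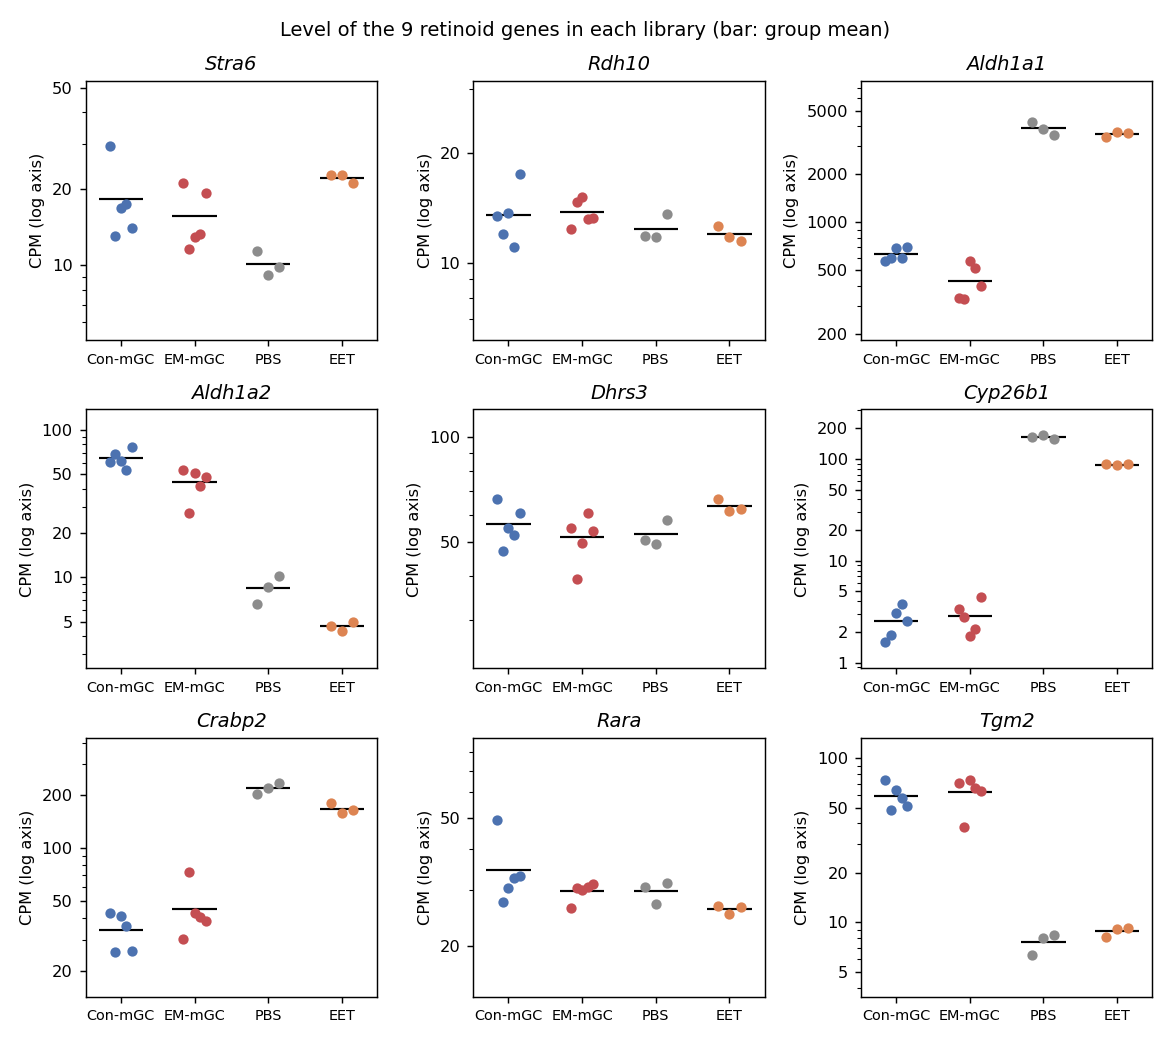
Level of each of the 9 genes in every library, as CPM scaled over all 16 libraries on a log axis, with 1 point per library and a bar at the group mean. Cyp26b1, Crabp2 and Aldh1a1 lie higher in all 6 cultured than in all 10 fresh libraries, Aldh1a2 and Tgm2 lie lower, and Rdh10, Dhrs3 and Rara overlap between fresh cells and PBS.

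Stra6, the cell-surface receptor for retinol (chromosome 9, 57971071 to 58061279, plus strand), was highest in EET (22.1 CPM ± 0.948, SD, n = 3), then Con-mGC (18.2 ± 6.59, n = 5), EM-mGC (15.6 ± 4.25, n = 5) and PBS (10.1 ± 1.14, n = 3). EM-mGC and PBS did not overlap, while the ranges of EET and Con-mGC and those of Con-mGC and EM-mGC did. All positions of genes are those of the count tables, whose build is GRCm39 by the submitters' notes. The Stra6 locus overlaps Ccdc33 on the opposite strand, which had 49 to 269 reads in fresh libraries, against 169 to 486 for Stra6, and 4 to 10 in cultured ones.

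Crabp2, the carrier that hands retinoic acid to its receptors (chromosome 3, 87855973 to 87860683, plus strand), stood at 220.3 CPM ± 15.7 (SD, n = 3) in PBS, 168 ± 11.99 in EET, 44.9 ± 16.3 (n = 5) in EM-mGC and 34.1 ± 8.05 in Con-mGC. Only EM-mGC and Con-mGC, its neighbours at the low end, overlapped. Its sister gene Crabp1 had 0 to 5 reads in any library, so Crabp2 made up 98.6% to 100% of the pair per kilobase.

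Rdh10, which makes retinal from retinol (chromosome 1, 16175998 to 16203958, plus strand), was the most even of the 9. Its means ran from 11.97 CPM ± 0.589 (SD, n = 3) in EET and 12.4 ± 1.07 in PBS to 13.5 ± 2.49 (n = 5) in Con-mGC and 13.7 ± 1.14 in EM-mGC, with every neighbour overlapping. Dhrs3, which runs the opposite reaction (chromosome 4, 144619397 to 144654779, plus strand), was nearly as even, at 51.7 ± 7.94 in EM-mGC, 52.7 ± 4.54 in PBS, 56.4 ± 7.47 in Con-mGC and 63.5 ± 2.61 in EET, again with overlap between neighbours.

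Aldh1a1, an abundant retinal dehydrogenase (chromosome 19, 20470079 to 20620829, plus strand), stood at 3889 CPM ± 368 (SD, n = 3) in PBS, 3589 ± 141 in EET, 633 ± 59.9 (n = 5) in Con-mGC and 432 ± 110.1 in EM-mGC. Cultured and fresh libraries did not overlap, while PBS and EET did, as did Con-mGC and EM-mGC. Aldh1a2, the retinal dehydrogenase of many embryonic tissues (chromosome 9, 71123071 to 71203525, plus strand), was instead higher in fresh than in cultured cells, at 64.4 ± 8.72 in Con-mGC, 44.4 ± 10.6 in EM-mGC, 8.46 ± 1.82 in PBS and 4.66 ± 0.325 in EET, and none of these neighbours overlapped. Like Aldh1a1, Aldh1a2 was higher in mean in Con-mGC than in EM-mGC and in PBS than in EET. Aldh1a2 was the only one of the 9 genes whose 4 groups were fully apart.

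Cyp26b1, which breaks retinoic acid down (chromosome 6, 84548396 to 84570890, minus strand), was barely read in fresh cells, at 2.56 CPM ± 0.875 (SD, n = 5) in Con-mGC and 2.89 ± 1.02 in EM-mGC, from 24 to 69 reads a library. Cultured cells held 164 ± 6.17 (n = 3) in PBS and 88.0 ± 1.43 in EET. Only the fresh groups overlapped.

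Rara, a nuclear receptor for retinoic acid (chromosome 11, 98818644 to 98865768, plus strand), ran from 26.1 CPM ± 0.851 (SD, n = 3) in EET to 34.5 ± 8.45 (n = 5) in Con-mGC, with 29.7 ± 1.89 in EM-mGC and 29.7 ± 2.34 in PBS, and each neighbour overlapped. Tgm2, a protein cross-linking enzyme long used as a retinoic acid response gene (chromosome 2, 157958322 to 157988356, minus strand), stood at 62.3 ± 14.2 in EM-mGC, 58.8 ± 10.3 in Con-mGC, 8.85 ± 0.63 in EET and 7.59 ± 1.10 in PBS. Fresh and cultured Tgm2 levels did not overlap. Its locus overlaps Rprd1b on the opposite strand, with 384 to 1153 reads against 116 to 1212 for Tgm2.

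The 9 genes were next placed within their families, per kilobase. Aldh1a1 made up 79.2% to 82.9% of the summed level of Aldh1a1, Aldh1a2 and Aldh1a3 in Con-mGC, 73.3% to 83.8% in EM-mGC, and 99.3% to 99.7% in the 6 cultured libraries. Cyp26b1 shared the CYP26 family with Cyp26a1 in fresh cells, at 39.6% to 83.6% of the family. In culture Cyp26a1 and Cyp26c1 had 0 reads in all 6 libraries, which allows Cyp26a1 a level of up to 0.0400 CPM over the PBS and 0.0377 over the EET libraries (3 reads, counting error only), so Cyp26b1 was the whole family measured there. Cyp26a1 itself had 2 to 35 reads per Con-mGC and 4 to 9 per EM-mGC library. Among the receptors Rara made up 47.7% to 61.3% in fresh libraries and 36.5% to 43.8% in cultured ones, the rest being almost all Rarg, and Rarb had no more than 19 reads in any library.

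**Figure D2:**
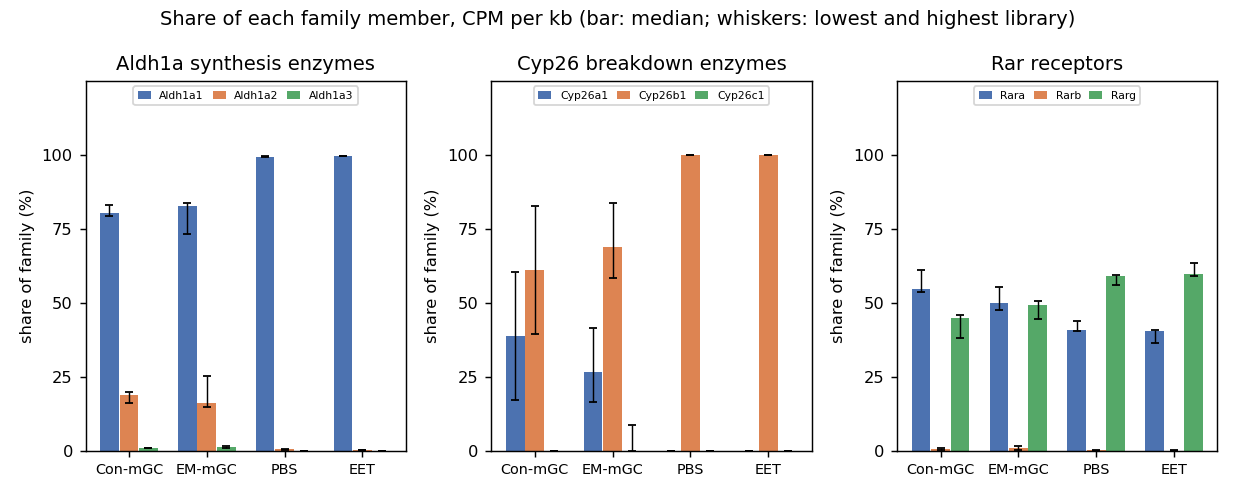
Share of each member in the summed level (CPM per kilobase) of the Aldh1a, Cyp26 and Rar families, with bars at the median of each group and whiskers from the lowest to the highest library. Aldh1a1 and Cyp26b1 fill over 99% of their families in the cultured groups, and Rara and Rarg share theirs.

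The first comparison asks what 100 nM 14,15-EET did to these genes in cultured mGCs of EM mice. Stra6 was higher and Cyp26b1, Aldh1a2 and Crabp2 were lower in EET than in PBS, in every library, while Aldh1a1, Rdh10 and Tgm2 overlapped between the groups. CPM values in this comparison are scaled within the 6 cultured libraries, and the fold changes are those of edgeR.

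Stra6 was read at 9.91, 8.03 and 8.52 CPM in PBS-1 to PBS-3 and at 19.7, 19.9 and 18.4 in EET-1 to EET-3. The groups were far apart, and the log2 fold change was 1.14 (SE 0.09). The overlapping gene Ccdc33 had 5 to 10 reads in EET and 4 to 8 in PBS libraries, where Stra6 had 439 to 579 and 209 to 237.

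Cyp26b1 stood at 143, 149 and 136 CPM in PBS and 77.3, 75.8 and 77.4 in EET, a log2 fold change of -0.89 (SE 0.05). The 3 EET libraries lay within 2 CPM of each other and all below the lowest PBS library.

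Aldh1a2 was read at 5.74, 7.50 and 8.84 CPM in PBS and 4.04, 3.804 and 4.35 in EET, a log2 fold change of -0.87 (SE 0.16). PBS-1 was the closest to the EET libraries, and the groups did not overlap. Aldh1a1 stood at 3713, 3383 and 3056 CPM in PBS and 2980.1, 3255 and 3168 in EET, a log2 fold change of -0.11 (SE 0.07), with EET-2 and EET-3 above PBS-3. The ratio of Aldh1a1 to Aldh1a2 in CPM per kilobase was 158.5 to 297 in PBS and 334 to 392 in EET.

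Crabp2 was read at 178, 193 and 204 CPM in PBS and 157, 139 and 144 in EET, a log2 fold change of -0.39 (SE 0.06). The highest EET library lay below the lowest PBS library. Rdh10 stood at 10.3, 10.3 and 11.8 CPM in PBS and 10.97, 10.35 and 10.04 in EET, a log2 fold change of -0.05 (SE 0.10), with overlapping groups.

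Dhrs3 was read at 44.2, 43.4 and 50.1 CPM in PBS and 57.7, 54.1 and 54.5 in EET, a log2 fold change of 0.27 (SE 0.07) without overlap. With Rdh10 even, the ratio of Dhrs3 to Rdh10 in CPM per kilobase was 5.98 to 6.10 in PBS and 7.43 to 7.72 in EET. Over the fresh libraries that ratio ran from 3.8 to 7.05.

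Rara stood at 26.6, 23.7 and 27.2 CPM in PBS and 23.2, 22.1 and 23.1 in EET, a log2 fold change of -0.18 (SE 0.07). The groups were apart by less than 1 CPM. Tgm2 was read at 5.5, 7.07 and 7.22 CPM in PBS and 7.06, 8.03 and 8.12 in EET, a log2 fold change of 0.22 (SE 0.13), with EET-1 below the 2 higher PBS libraries.

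Across the 9 genes, 6 did not overlap between groups, beside 17.6% of all genes. The median log2 fold change of the 9 was -0.11, against 0.00 over all genes tested. Because the set was chosen on this contrast, nothing is read from this count or this median.

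**Figure D3:**
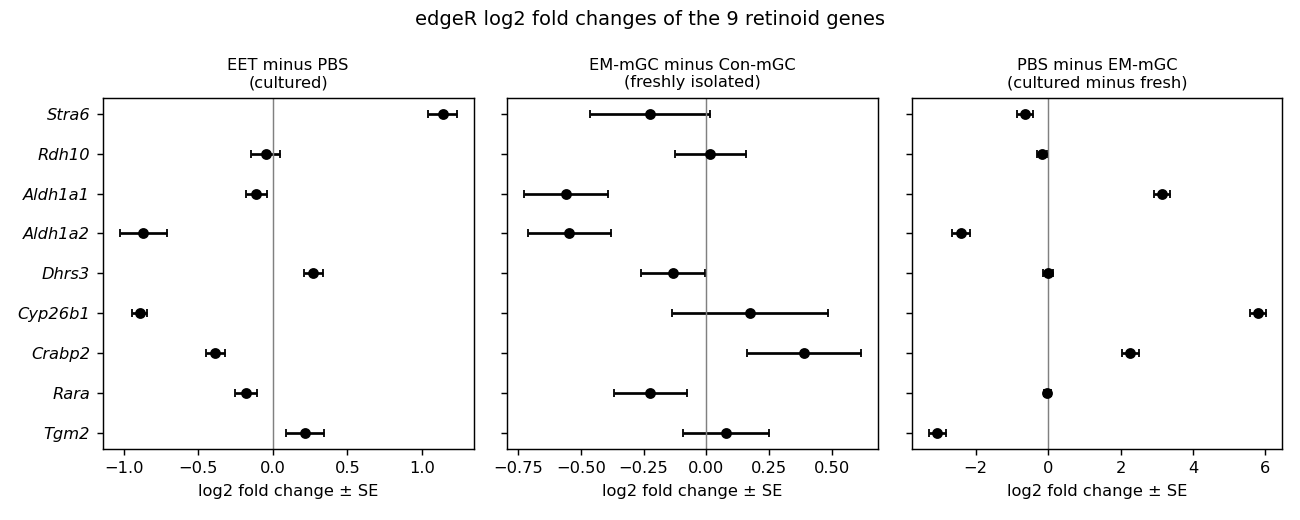
edgeR log2 fold change of each of the 9 genes with its standard error (whiskers) in the 3 comparisons, each on its own horizontal scale. After 14,15-EET Stra6 lies at 1.14 and Cyp26b1 and Aldh1a2 at -0.89 and -0.87, while between EM-mGC and Con-mGC Aldh1a1 and Aldh1a2 lie farthest from 0.

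Genes of the pathway outside the set were tested in the same fit, on lists that hold 70 further retinoid genes. Of the 42 that passed the filter on low counts, 0 rose and 1 fell at an adjusted p of 0.05, beside 1.22% of the 15050 genes tested (0.498% higher, 0.724% lower). The one that fell was Aldh1a7 (0 of 6 tested in uptake, storage and binding, 0 of 13 in retinol oxidation and retinal reduction, 1 of 3 in retinoic acid synthesis and carotene cleavage, 0 of 10 among receptors and co-regulators, 0 of 10 among response genes). Neither Cyp26a1 nor Cyp26c1, the list of breakdown enzymes, passed the filter. The median log2 fold change of the 42 was -0.01, against 0.00 over all genes, and 9 of the 42 did not overlap between groups, beside 17.6% of all genes.

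Aldh1a7 is a rodent paralog of Aldh1a1, and whether its product makes retinoic acid was not tested. Aldh1a7 had 224, 268 and 282 reads in PBS and 197, 149 and 128 in EET. It fell by 0.80 on the log2 scale (SE 0.11; from 10.4 CPM ± 0.246 to 5.90 ± 0.697, SD, n = 3 each; edgeR quasi-likelihood test, adjusted p = 0.0040), and all 3 EET libraries lay below all 3 PBS libraries in CPM. The call held under every alternative tried (adjusted p from 2.15e-08 to 0.0409), single libraries left out included. Aldh1a1 shares 50 of its 4934 stretches of 75 bases (1.01%) with Aldh1a7, and how reads matching several genes were treated is not given in the sources used here, so Aldh1a7 is uncertain beside Aldh1a1, which had 75734 to 88013 reads in the same libraries. None of the other 8 genes shared such a stretch with another gene.

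The start-site windows of these paralogs are shown because they are nearly the same, with 142 of 150 bases identical (94.7%) from 100 bases before to 50 after the start, and with the same hexamer, read on the opposite strand, from base 49 before the start. They lie at chr19:20601718-20602017 on the plus strand and chr19:20727507-20727806 on the minus strand of GRCm38.p6 (RefSeq), with the hexamer in capitals.
Aldh1a1: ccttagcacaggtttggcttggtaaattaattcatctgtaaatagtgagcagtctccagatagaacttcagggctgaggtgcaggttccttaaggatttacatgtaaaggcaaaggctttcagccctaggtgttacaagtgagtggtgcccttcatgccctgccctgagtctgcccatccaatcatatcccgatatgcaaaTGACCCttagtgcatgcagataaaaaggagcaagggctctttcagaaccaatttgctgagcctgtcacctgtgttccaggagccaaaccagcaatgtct
Aldh1a7: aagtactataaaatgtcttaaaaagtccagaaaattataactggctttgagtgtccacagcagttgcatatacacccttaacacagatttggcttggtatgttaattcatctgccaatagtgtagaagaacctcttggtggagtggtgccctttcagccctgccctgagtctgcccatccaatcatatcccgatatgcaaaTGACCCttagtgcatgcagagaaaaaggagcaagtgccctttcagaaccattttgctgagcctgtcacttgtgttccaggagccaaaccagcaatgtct

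The other named pathway genes did not pass the test after 14,15-EET. Fabp5, an alternative retinoic acid carrier, had a log2 fold change of -0.01 (adjusted p = 0.957), and Rdh11, a retinal reductase, had -0.07 (adjusted p = 0.643). Aldh1a3 had 0.10 (adjusted p = 0.921). Among receptors, Rarg had -0.02 (adjusted p = 0.936), Rxra -0.09 (adjusted p = 0.566) and Rxrb -0.02 (adjusted p = 0.919), and Nrip1, a receptor co-regulator, had -0.05 (adjusted p = 0.791). Rbp4, Crabp1, Lrat and Rarb were too low to be tested, with at most 9 reads in any cultured library.

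**Figure D4:**
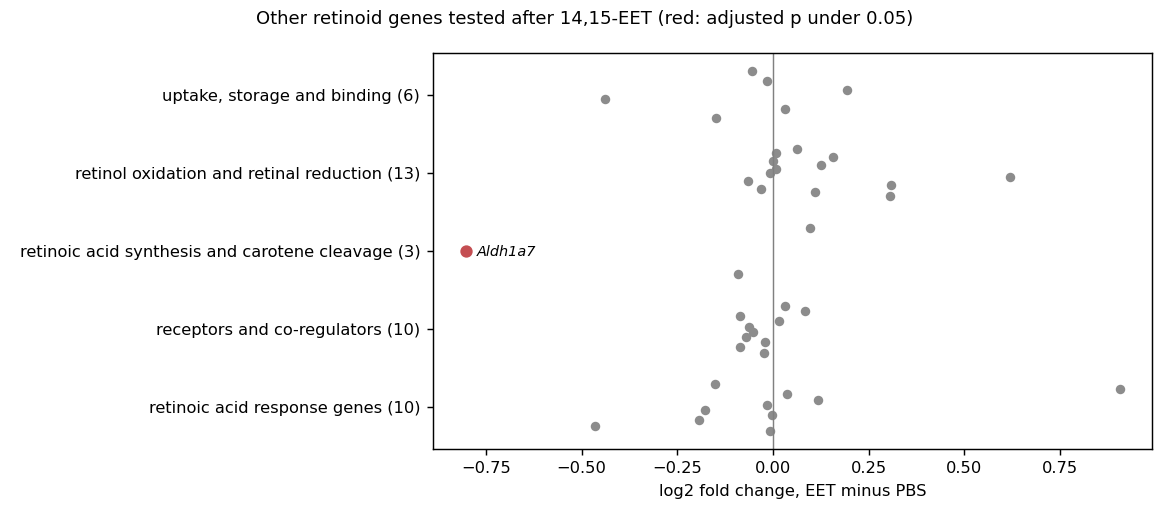
edgeR log2 fold change (EET minus PBS) of the 42 tested retinoid genes outside the set of 9, by list, with 1 point per gene and the number tested in brackets. The only gene past an adjusted p of 0.05 is Aldh1a7, at -0.80, and most others lie near 0.

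Markers of cell types were set beside the 14,15-EET comparison. The summed granulosa markers did not overlap between PBS (5364 to 5964 CPM) and EET (4864 to 5336), and of 7 tested markers 1 was called, Inha, the inhibin alpha subunit, at a log2 fold change of -0.36 (SE 0.08, adjusted p = 0.0430), a call lost without PBS-3 (adjusted p = 0.145), EET-2 (0.251) or EET-3 (0.28). Surface epithelium markers were also apart, at 177 to 193 CPM in PBS and 144 to 159 in EET, with 1 of 5 called, Krt18, at -0.29 (SE 0.05, adjusted p = 0.0152), a call lost without EET-2 (adjusted p = 0.0917) or EET-3 (0.151). Krt8 and Krt18 made up most of that sum, with means of 72.8 and 83.7 CPM in PBS (scaled within the cultured libraries), against 0.513 for Krt19. Stroma sums overlapped (241 to 326 and 270.3 to 280.2), as did those of theca (612 to 802 and 542 to 618), leukocytes (15.1 to 18.1 and 16.7 to 27.5) and endothelium (2.91 to 3.9 and 3.47 to 3.83), and the oocyte sums were 1.14 to 1.36 and 0.623 to 1.04, all with 0 markers called. The part of these differences in the values of the 9 genes was not tested.

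The second comparison, which uses none of the cultured libraries, asks whether the EM model altered these genes in freshly isolated mGCs. Aldh1a2 was lower in all 5 EM-mGC than in all 5 Con-mGC libraries and Aldh1a1 was lower in mean, but neither passed the test across all genes. No other gene of the 9 was apart between the groups. CPM values here are scaled within the 10 fresh libraries.

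Aldh1a2 was read at 66.1, 75.3, 66.4, 59.3 and 83.4 CPM in Con-mGC-1 to Con-mGC-5 and at 57.6, 29.5, 55.7, 45.3 and 52.1 in EM-mGC-1 to EM-mGC-5. The highest EM-mGC library lay just below the lowest Con-mGC library, and EM-mGC-2 was far below the rest. The log2 fold change was -0.55 (SE 0.17; 48.1 ± 11.4 against 70.1 ± 9.36, SD, n = 5 each; edgeR quasi-likelihood test, adjusted p = 0.430), and the exact two-sided permutation test over the 10 libraries gave p = 0.00794, the smallest it can give, and 0.0714 after adjustment over 9 such tests. Without EM-mGC-2 the log2 fold change was -0.41.

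Aldh1a1 stood at 616, 655, 744, 662 and 767 CPM in Con-mGC and 363, 358, 623, 564 and 430.5 in EM-mGC. Only EM-mGC-3 reached into the range of Con-mGC, where it exceeded Con-mGC-1. The log2 fold change was -0.56 (SE 0.17; 468 ± 120.3 against 689 ± 64.0, SD, n = 5 each; edgeR quasi-likelihood test, adjusted p = 0.421; exact two-sided permutation p = 0.0159, and 0.0714 adjusted over the 9 tests). It ran from -0.68 to -0.48 when single libraries were left out.

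Crabp2 was read at 45.9, 27.8, 44.3, 39.4 and 28.2 CPM in Con-mGC and 32.5, 78.8, 46.5, 43.9 and 41.5 in EM-mGC, a log2 fold change of 0.39 (SE 0.23, adjusted p = 0.595). EM-mGC-2 alone was far above all others. Stra6 stood at 31.9, 14.2, 18.1, 19.2 and 15.3 CPM in Con-mGC and 22.7, 12.5, 14.0, 14.4 and 20.8 in EM-mGC, a log2 fold change of -0.22 (SE 0.24, adjusted p = 0.777). Without Con-mGC-1, the highest library, the Stra6 log2 fold change was 0.02.

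Cyp26b1 stood at 1.71, 2.02, 3.31, 4.10 and 2.80 CPM in Con-mGC and 3.61, 3.02, 1.99, 2.31 and 4.74 in EM-mGC, a log2 fold change of 0.17 (SE 0.31, adjusted p = 0.874). Both groups covered the same range, and without EM-mGC-5 the value was -0.02. At 24 to 69 reads a library this gene had the widest error of the 9.

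Rdh10 was read at 12.2 to 19.1 CPM in Con-mGC and 13.3 to 16.4 in EM-mGC, a log2 fold change of 0.02 (SE 0.14, adjusted p = 0.979). Dhrs3 was read at 51.6 to 71.9 CPM in Con-mGC and 42.6 to 66.0 in EM-mGC, a log2 fold change of -0.13 (SE 0.13, adjusted p = 0.753). Rara was read at 30.0 to 53.1 CPM in Con-mGC and 28.4 to 33.8 in EM-mGC, a log2 fold change of -0.22 (SE 0.14, adjusted p = 0.628), with Con-mGC-1 far above the rest. Tgm2 was read at 52.7 to 79.5 CPM in Con-mGC and 41.2 to 79.9 in EM-mGC, a log2 fold change of 0.08 (SE 0.17, adjusted p = 0.898). All 4 overlapped widely, and the exact permutation p of the 7 genes other than Aldh1a1 and Aldh1a2 was 0.175 or more.

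Of the 9 genes, 0 passed an adjusted p of 0.05 in edgeR's quasi-likelihood test, beside 0% of the 17229 genes tested. At an unadjusted p of 0.05, 2 of the 9 passed, beside 9.44% of all genes, and 1 did not overlap, beside 1.69% of all genes (0.778% lower). DESeq2 called 116 genes in this comparison and 0 of these 9. The median log2 fold change of the 9 was -0.13, against -0.01 over all genes.

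The summed stroma markers, like Aldh1a2, were lower in every EM-mGC than in every Con-mGC library. Their summed level was 1471 to 1612 CPM in Con-mGC and 591 to 1382 in EM-mGC, without overlap. Most of it was Col1a1, Col1a2 and Col3a1, with means of 394, 416 and 652 CPM in Con-mGC (scaled within the fresh libraries). Lower in mean were 7 of 8 markers, of which Col1a1 (log2 fold change -0.96, SE 0.21, adjusted p = 0.348) and Col3a1 (-0.58, SE 0.19, adjusted p = 0.443), both interstitial collagens, did not overlap. The remaining marker, Dcn, was higher in mean (0.16, SE 0.25, adjusted p = 0.854). None of the 8 was called by edgeR, 3 passed an unadjusted p of 0.05, and of Col1a1 and Col3a1 DESeq2 called Col1a1 (adjusted p = 0.0107). EM-mGC-2, lowest in Aldh1a1 and Aldh1a2 and highest in Crabp2, had the lowest stroma sum (591) and the highest granulosa sum (17334) of the fresh libraries. On the joint scale it had 331 CPM of Aldh1a1. EM-mGC-1, with the highest stroma sum of its group (1382), had 337, and EM-mGC-3, with a sum of 1015, had 576. Endothelial markers were all lower in mean (7 of 7; 153 to 178 CPM in Con-mGC and 84.6 to 156 in EM-mGC) and leukocyte markers all higher (7 of 7; 169 to 333 and 246 to 625), with 0 called, as were 0 granulosa, theca, surface epithelium, oocyte and red blood cell markers. The part of these cells in the Aldh1a1 and Aldh1a2 values was not tested.

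**Figure D5:**
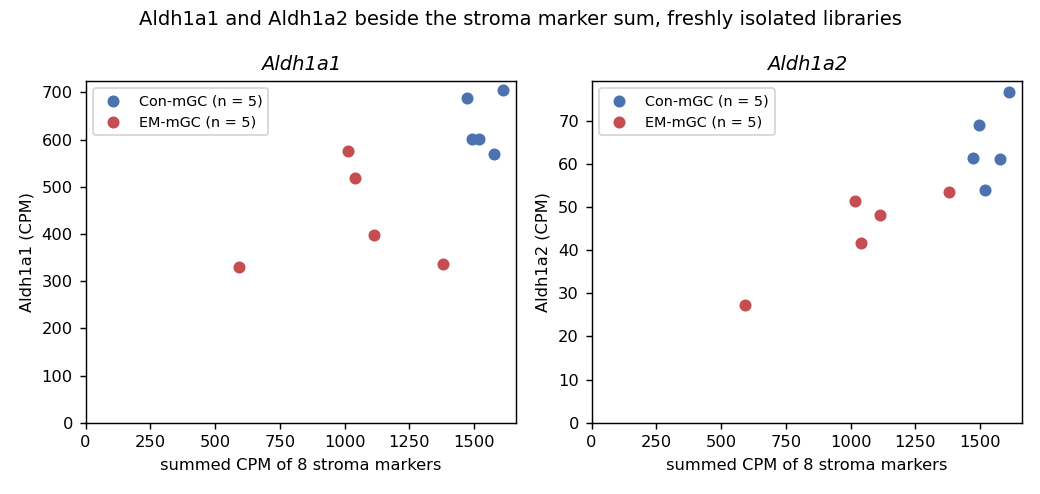
Aldh1a1 (left) and Aldh1a2 (right) in each of the 10 fresh libraries against the summed level of 8 stroma markers, all as CPM scaled over the 16 libraries. Col1a1, Col1a2 and Col3a1 made up most of that sum. The EM-mGC points lie left of the Con-mGC points in both panels, and the library with the lowest stroma sum (591) is the lowest in both genes. In the Aldh1a1 panel that library is at 331, and the EM-mGC library with the highest stroma sum (1382) is at 337. The EM-mGC library highest in Aldh1a1 (576) has a sum of 1015.

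Among the other retinoid genes 48 of 70 were tested between EM-mGC and Con-mGC, and 0 were called by edgeR. Their median log2 fold change was -0.07, against -0.01 over all genes. Of the 48, 4 passed an unadjusted p of 0.05, beside 9.44% of the 17229 genes tested, a share they did not exceed. These 4, named after their values were seen, were Dgat1, which esterifies retinol among other lipids (0.48, SE 0.16, adjusted p = 0.456), and Dhrs9, a retinol dehydrogenase (0.95, SE 0.42, adjusted p = 0.520), both higher, and Lrat, which stores retinol as esters (-0.58, SE 0.26, adjusted p = 0.520), and Ncoa1, a receptor coactivator (-0.25, SE 0.10, adjusted p = 0.510), both lower. By list, 0 of 10 were called in uptake, storage and binding, 0 of 14 in retinol oxidation and retinal reduction, 0 of 3 in synthesis, 0 of 11 among receptors and co-regulators and 0 of 10 among response genes, and no breakdown enzyme was tested.

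The remaining always-named genes had log2 fold changes from -0.24 (Aldh1a3, adjusted p = 0.744) to 0.91 (Rarb, from 2 to 19 reads, adjusted p = 0.645). Between them lay Fabp5 at 0.22 (adjusted p = 0.721), Rdh11 at 0.13 (adjusted p = 0.794), Rbp4 at -0.14 (adjusted p = 0.922), Nrip1 at -0.20 (adjusted p = 0.693), Rarg at 0.05 (adjusted p = 0.900), Rxra at -0.07 (adjusted p = 0.877) and Rxrb at 0.03 (adjusted p = 0.913). None passed the test.

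The third comparison sets cultured EM cells without 14,15-EET (PBS) beside freshly isolated EM-mGC, with the counts of both experiments in 1 fit. Aldh1a1 and Crabp2 rose, Tgm2 and Aldh1a2 fell, and Rdh10, Dhrs3 and Rara did not pass the test. Stra6 and Cyp26b1 were chosen by values that include these PBS libraries, which favours a low Stra6 and a high Cyp26b1 in PBS, so both are given as a description without a test. Culture, mice, library preparation and sequencing differed together, so their parts cannot be told apart. Markers of every cell type moved as well, in a comparison where 31.1% of the 17301 genes tested were called higher and 37.9% lower. Called lower in PBS were 7 of 7 endothelial, 7 of 7 leukocyte, 6 of 6 oocyte, 3 of 3 red blood cell, 9 of 10 granulosa and 7 of 8 stroma markers. Of 8 surface epithelium markers 2 were called higher (Krt8 and Krt18) and 6 lower, and of 5 theca markers 1 higher (Acta2) and 3 lower (Cyp17a1, Insl3 and Srd5a1). Their part in the results of the 9 genes was not tested.

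Cyp26b1 went from 2.89 CPM in EM-mGC to 164 in PBS on the joint scale, a log2 fold change of 5.79 (SE 0.21). Every PBS library (3025 to 3868 reads) exceeded every EM-mGC library (24 to 69 reads). Aldh1a1 rose by a log2 fold change of 3.15 (SE 0.23; edgeR quasi-likelihood test, adjusted p = 2.47e-06) and Crabp2 by 2.27 (SE 0.23, adjusted p = 1.82e-05), both without overlap.

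Tgm2 fell by 3.06 on the log2 scale (SE 0.24, adjusted p = 4.1e-06) and Aldh1a2 by 2.41 (SE 0.25, adjusted p = 2.22e-05). The synthesis enzymes Aldh1a1 and Aldh1a2 thus stood on opposite sides, and the ratio of Aldh1a1 to Aldh1a2 in CPM per kilobase went from 2.89 to 5.71 in EM-mGC to 158.5 to 297 in PBS. Stra6 had a log2 fold change of -0.65 (SE 0.22), and the opposite-strand gene Ccdc33 had 49 to 269 reads in EM-mGC and 4 to 8 in PBS.

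Rdh10 had a log2 fold change of -0.17 (SE 0.14, adjusted p = 0.287), Dhrs3 of 0.01 (SE 0.14, adjusted p = 0.972) and Rara of -0.02 (SE 0.10, adjusted p = 0.855). The 2 enzymes that interconvert retinol and retinal thus differed by little more than their standard errors. Of the 7 genes other than Stra6 and Cyp26b1, 4 passed the test (2 higher, 2 lower), beside 69% of the 17301 genes tested (31.1% higher, 37.9% lower), and 4 did not overlap, beside 66.3% of all genes. Neither share exceeds that over all genes.

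Among the other retinoid genes 49 were tested and 17 rose and 22 fell, beside 31.1% higher and 37.9% lower of the 17301 genes tested. Their median log2 fold change was 0.05, against -0.11 over all genes. The counts by list that follow stand beside the same shares. In uptake, storage and binding 0 rose and 7 of 9 fell. In retinol oxidation and retinal reduction 7 rose and 5 fell of 14, in synthesis and carotene cleavage 2 and 2 of 4, among receptors and co-regulators 6 and 3 of 11, and among response genes 2 and 5 of 11.

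The largest rises were Aldh1a7 (log2 fold change 3.49, SE 0.26, adjusted p = 3.27e-06), Adh7, an alcohol dehydrogenase (3.02, SE 0.42, adjusted p = 0.000136), Ret, a receptor tyrosine kinase (2.60, SE 0.43, adjusted p = 0.000445), Bco1, which cleaves carotene (2.19, SE 0.51, adjusted p = 0.00329), and Rai1, a nuclear protein (1.204, SE 0.16, adjusted p = 0.000115). Aldh1a7 went from 8 to 24 reads a library in EM-mGC to 224 to 282 in PBS. The largest falls included Lrat, with 41 to 89 reads in EM-mGC and 0, 2 and 1 in PBS, and Stra6l, a relative of Stra6, with 8 to 32 and 0, 0 and 2. Rarres2, which encodes chemerin, fell by 4.52 (SE 0.22, adjusted p = 3.04e-07) and Lrp2, an endocytic receptor, by 3.67 (SE 0.67, adjusted p = 0.000828).

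Of the other always-named genes Rbp4 fell by 2.35 (adjusted p = 0.0106), Aldh1a3 by 1.58 (adjusted p = 0.00159), Nrip1 by 1.16 (adjusted p = 3.01e-05) and Fabp5 by 0.69 (adjusted p = 0.0197, lost without PBS-2 at 0.0796 or PBS-3 at 0.0547). Rdh11 rose by 0.82 (adjusted p = 0.000997), Rxra by 0.81 (adjusted p = 0.000415), Rarg by 0.55 (adjusted p = 0.00289) and Rxrb by 0.29 (adjusted p = 0.0182). The Rxrb call was lost with at least 10 counts in every library (adjusted p = 0.242), for protein-coding genes only (0.0853), and without PBS-1 (0.0536) or PBS-3 (0.116). Rarb, with 2 to 19 reads a library in EM-mGC and 0 to 4 in PBS, fell by 2.74 (adjusted p = 0.0163, and 0.0524 without PBS-1), and Crabp1 was too low to be tested. Of the 3 receptors of the RAR family, 1 rose, 1 fell and Rara did not pass the test.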

How the data were processed

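RNA-seq of 16 mGC libraries in 4 groups was used. The deposited tables hold raw read counts per Ensembl gene, which the authors made with featureCounts by the name of the files, and fastp, HISAT2, StringTie and GRCm39 are named in the submitters' processing notes. Libraries were poly(A)-selected and strand-specific, while tool versions, the counting strand and the handling of multi-mapped reads are not given in the sources used here, so genes that overlap another on either strand are uncertain. No column was left unused (0 columns).

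R 4.3.3 and edgeR 4.0.16 were used: genes were filtered with filterByExpr, scaled by TMM and compared by the quasi-likelihood test with Benjamini-Hochberg adjustment over all genes, called at 0.05, on the 2 groups compared only. Exact two-sided permutation tests of mean log2 CPM were added between EM-mGC and Con-mGC. DESeq2 1.42.0, RLE scaling, other count filters (none, at least 10 counts in every library), protein-coding genes only, a replicate block and leaving out each library were alternatives, and the code was tested on simulated data. limma 3.58.1 was loaded by edgeR. CPM is given within an experiment or scaled jointly over the 16 libraries. Levels between genes were divided by exon length from an annotation of GRCm38, whose coordinates are not those of the tables (1460 of 52029 shared genes had the same start), and 75-base stretches shared between genes were counted in its transcripts. RefSeq windows are of GRCm38.p6.

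Within each group every pair of libraries differed beyond sampling noise (chi-square per degree of freedom 2.66 or more). Total counts were 14229123 to 29482826, which sets the precision of genes with few reads. Fresh libraries came from separate mice. For the cultured groups the methods speak of paired replicates, but same-numbered libraries did not deviate together (correlations 0.09, 0.16 and -0.04), so p-values measure the spread between libraries without a block. How mice were divided among the cultured libraries is not given, so that spread may miss differences between mice.

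The 9 genes and the lists (6 of other retinoid genes, 8 of cell type markers) were chosen with earlier results of these data known. Named are the 9 genes, 14 pathway genes in every comparison, every pathway gene called after 14,15-EET or between EM-mGC and Con-mGC (10 at most), the 5 largest called changes in each direction between PBS and EM-mGC, and for Stra6 and Cyp26b1 the 3 genes most alike over the 10 fresh libraries among those with a mean of at least 1 CPM. Of the genes this rule names, 2 are not reported here.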

Additional observations from a re-analysis of the deposited data

Results flagged for a closer look

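In 4 of the 18 sets of 5 fresh libraries examined (9 genes in Con-mGC and in EM-mGC), 1 library stood apart from the rest. Its gap was over 0.71 of the range of its group, which about 1 in 20 sets of independent, normally distributed values would show. The 9 genes share the same libraries, so no excess over chance is read from this count. Stra6 was read at 31.9 CPM in Con-mGC-1, with the next Con-mGC library at 19.2. Rara was read at 53.1 CPM in the same library, with the next at 36.0. Rara in EM-mGC-1 was the lowest of its group at 28.4 CPM, with the next at 32.5. Tgm2 in EM-mGC-2, the library with the lowest stroma marker sum, was read at 41.2 CPM, with the next at 68.8.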

How the results depend on the processing

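Between EM-mGC and Con-mGC edgeR called 0 genes. DESeq2 called 116, no low count filter gave 4, a replicate block, though the mice are separate, gave 2, and leaving out single libraries gave 0 to 46 (46 without Con-mGC-3), with none of the 9 retinoid genes called under any alternative. Between EET and PBS 184 genes were called, against 322 by DESeq2, 662 without a filter, 341 with the replicate block and 48 to 436 without single libraries (48 without EET-3, 61 without EET-2, 122 without EET-1, 350 without PBS-1, 436 without PBS-2). The numbers were not taken to pair the libraries, since only number 2 correlated best with its own number. Between PBS and EM-mGC the count (11937) stayed within 1.5 times, from 8560 to 14355. Between EM-mGC and Con-mGC, leaving out single libraries moved the log2 fold change of Stra6 (-0.22) from -0.353 to 0.025 (above 0 without Con-mGC-1), of Cyp26b1 (0.17) from -0.0241 to 0.352 (below 0 without EM-mGC-5) and of Rdh10 (0.02) from -0.0458 to 0.127 (below 0 without Con-mGC-2, Con-mGC-4, EM-mGC-2 or EM-mGC-3). Other retinoid genes with small differences also changed sign when 1 library was left out. In that comparison Rbp4 (-0.14) ranged from -0.386 to 0.0694, Rdh11 (0.13) from -0.000214 to 0.197, Rarg (0.05) from -0.00627 to 0.108, Rxra (-0.07) from -0.168 to 0.0134 and Rxrb (0.03) from -0.0013 to 0.0643. Between EET and PBS the log2 fold change of Fabp5 (-0.01) ranged from -0.0769 to 0.0439, of Aldh1a3 (0.10) from -0.18 to 0.26, of Rarg (-0.02) from -0.0817 to 0.0272, of Rxrb (-0.02) from -0.0906 to 0.0376 and of Nrip1 (-0.05) from -0.107 to 0.0204. Between PBS and EM-mGC that of Dhrs3 (0.01) was -0.0199 under RLE scaling, -0.15 with at least 10 counts, -0.088 for protein-coding genes and -0.11 to 0.0603 without single libraries (below 0 without EM-mGC-2, EM-mGC-3, EM-mGC-5 or PBS-3), and that of Rara (-0.02) was 0.0116 without a filter and -0.0791 to 0.0487 without single libraries (above 0 without PBS-2). Rdh10 was called there with at least 10 counts in every library (-0.33, adjusted p = 0.0494, against 0.0987 to 0.552 under the other alternatives). The cause of these changes was not tested. RLE scaling moved the median of all genes by 0.03 or less on the log2 scale. Genes with few reads in fresh cells (Cyp26b1) or in culture (Rarb, Cyp26a1, Lrat) limit what this depth can show.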

Other observations

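Over the 10 fresh libraries, the genes whose log2 CPM followed Stra6 most closely among 16121 compared were Rbm19 (Pearson r = 0.933), Lrp10 (r = 0.902) and Zbtb7c (r = 0.896). Those closest to Cyp26b1 included Gimap3 (r = 0.946) and Swt1 (r = 0.905). These values were picked as the highest among 16121 over only 10 libraries, and how high chance alone would reach was not tested. They are a description across libraries of 2 groups that share cell makeup and depth differences. The highest Stra6 value was in Con-mGC-1, and Cyp26b1 rests on 24 to 69 reads a library.

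Synthesis and breakdown genes were also set against each other as levels. The ratio of Aldh1a1, the highest of its family in every group, to Cyp26b1 in CPM per kilobase was 175 to 391 in Con-mGC, 98.4 to 339.9 in EM-mGC, 24.3 to 28.1 in PBS and 41.8 to 46.5 in EET. That of Aldh1a2 (at most 0.627% of the family in culture) was 34.2 to 91.6 in Con-mGC, 23.1 to 66.2 in EM-mGC, 0.0946 to 0.154 in PBS and 0.119 to 0.133 in EET. Aldh1a2 and Cyp26b1 were both lower in EET than in PBS, and their ratio overlapped between these groups, while that of Aldh1a1 did not. The ratio of Crabp2 to Cyp26b1 on the same scale was 5.03 to 6.07 in PBS and 7.4 to 8.24 in EET, without overlap, and 35.4 to 108.8 in fresh libraries. Cyp26b1 was chosen for its change between PBS and EET. Nothing is therefore read from how ratios over Cyp26b1 differ between these 2 groups. Among the receptors that pair with RARA, Rxrb made up 59.2% to 73.1% and Rxra 26.7% to 40.7% of the summed RXR level per kilobase over the 16 libraries, and Rxrg no more than 0.233%.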
